A study of Mus musculus with 11 samples.

Results

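The comparison described here sets the lymphoid-restricted progenitor of each organ against the multipotent progenitor before it: the mean of common lymphoid progenitors (CLP, bone marrow) and double negative 3 thymocytes (DN3, thymus) minus the mean of lymphoid-primed multipotent progenitors (LMPP, bone marrow) and early thymic precursors (ETP, thymus). It rests on 8 of the 11 arrays of the series, 2 each for LMPP, CLP, ETP and DN3. Its members are all 19938 genes with a probe set of their own, none chosen by their values. The other 3 arrays hold hematopoietic stem cells (HSC, marrow, 2 arrays) and double negative 2 thymocytes (DN2, 1 array), and they enter the estimate of the spread. The cells were purified from C57BL/6J mice, with no treatment, transgene or deleted allele named in the labels for any of the 4 groups. The labels give neither the age or sex of the mice, nor the sort gates, nor whether the 2 arrays of a population came from separate animals, so the p-values below measure the spread between these arrays, which may be technical. For the thymic populations the tissue label and the design text name the thymus while their sample descriptions name bone marrow, and the tissue label was followed. Total RNA was measured on Affymetrix arrays, and values are RMA intensities on a log2 scale, where 1 unit is a 2-fold difference.

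Lymphocytes arise from stem cells through progenitors that first carry a mixed lymphoid and myeloid potential and then lose the myeloid part of it. In the marrow the common lymphoid progenitor is the stage from which B cells, natural killer cells and some dendritic cells derive, and in the thymus the early precursors still make myeloid, dendritic and natural killer cells until commitment to the T lineage between the DN2 and DN3 stages. Both restricted stages are known for the start of V(D)J recombination, the cutting and joining of antigen receptor gene segments by the RAG recombinase, at the immunoglobulin heavy chain locus in the marrow and at the T cell receptor loci in the thymus.

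The arrays bore the marks of their labels. Flt3, the cytokine receptor of lymphoid-primed progenitors, measured 10.48 and 10.75 in LMPP, 10.50 and 10.66 in CLP, 8.55 and 8.66 in ETP and 5.19 and 4.99 in DN3. Il2ra, the surface receptor chain that defines DN2 and DN3 cells, was at 11.30 and 11.23 in DN3 and at 6.96 and 7.68 in ETP, against 4.07 and 4.45 in LMPP and 4.44 and 4.24 in CLP. Ptcra, the pre-T cell receptor chain, was at 8.01 and 7.76 in DN3 and 6.38 and 6.23 in ETP, and Ebf1, the factor that starts the B cell programme, at 9.32 and 9.22 in CLP and 5.43 and 4.74 in LMPP. Il2ra, Kit, Flt3, Il7r, Cd44 and Cd34 commonly serve to sort these populations, so their differences may be set by the gates. Array medians lay between 6.01 and 6.12. Detection calls were not used, and many levels of 4 to 6 lie at or under these medians, so a fold drawn from such a level is a lower limit. A lower level in sorted cells cannot be told apart from fewer expressing cells.

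Averaged over both organs, 899 genes (4.51% of the 19938) differed between the restricted and the multipotent stages in limma at a Benjamini-Hochberg adjusted p under 0.05. Of these, 357 (1.79%) were higher and 542 (2.72%) lower in CLP and DN3. With each array centred on its median the split was more even, at 389 higher and 426 lower. Most of these calls were matched in the thymus alone: 659 of the 899 genes (73.3%) were called in the thymic step (DN3 minus ETP) and not in the marrow step (CLP minus LMPP). Another 77 (8.57%) were called in the marrow step alone, 81 (9.01%) in neither step, and 7 in both with opposite signs. The remaining 75 genes were called in both steps with the same sign. For 416 of the 899 (46.3%) the thymic and the marrow change differed from each other in the same fit, where 746 of all genes (3.74%) did, 286 (1.43%) with the higher and 460 (2.31%) with the lower value in the thymus. When the second DN3 array was left out, 597 genes were called, and 510 of the 899 kept their call whichever of the 8 arrays was left out.

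Taken one at a time, the marrow step gave 228 calls (1.14%), 120 higher (0.602%) and 108 lower (0.542%) in CLP, and the thymic step gave 1310 calls (6.57%), 535 higher (2.68%) and 775 lower (3.89%) in DN3. The marrow count fell to 98 without the second LMPP array, 139 without the first, and 125 or 135 without a CLP array, and the thymic count fell to 760 or 695 without a DN3 array and 805 or 849 without an ETP array. With each array centred on its median the marrow calls split into 115 higher and 66 lower. The steps share no array, only the pooled estimate of the spread. Genes called in both in the same direction numbered 75 (0.376% of all genes), 27 higher (0.135%) and 48 lower (0.241%). The 27 were 22.5% of the 120 genes higher in CLP and 5.05% of the 535 higher in DN3. The 48 were 44.4% of the 108 genes lower in CLP and 6.19% of the 775 lower in DN3. Genes called in opposite directions numbered 35 (0.176%), and 30 of those rose from LMPP to CLP and fell from ETP to DN3. Among the 120 genes higher in CLP, those 30 (25%) stood beside the 27 that were also higher in DN3. Without 1 array the 75 genes became 49 (first LMPP array), 39 (second LMPP), 41 (first CLP), 49 (second CLP), 43 (first DN3) or 45 (second DN3), and 59 or 56 without an ETP array.

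**Figure D1:**
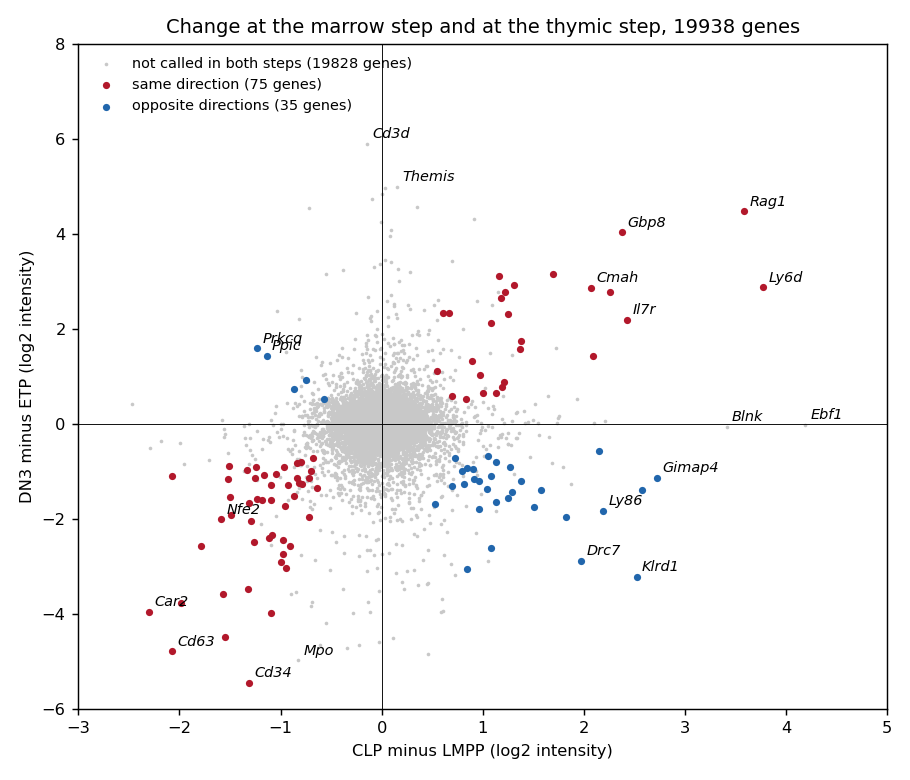
Each point is 1 of the 19938 genes, with the CLP minus LMPP difference on the x axis and the DN3 minus ETP difference on the y axis, both in log2 intensity. Red points are the 75 genes called in both steps with the same sign and blue points the 35 called with opposite signs; Rag1, Ly6d and Il7r lie far out at the upper right, Car2 and Cd63 at the lower left, while Ebf1 and Cd3d lie on the axes, with a difference near 0 in the other organ.

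Both genes of the recombinase rose in both organs, and Rag1 had the largest average rise of the 27 shared higher genes. Rag1, the catalytic subunit, measured 7.35 and 7.43 in LMPP, 10.85 and 11.10 in CLP, 6.85 and 7.25 in ETP and 11.45 and 11.63 in DN3. Rag2, its obligate partner, measured 7.84 and 7.59 in LMPP, 9.0 and 9.18 in CLP, 7.14 and 7.53 in ETP and 9.09 and 9.08 in DN3. Every CLP and DN3 array lay above every LMPP and ETP array for both genes. The mean log2 difference of Rag1 was 4.03 ± 0.12 (SE), a 16.4-fold difference (limma adjusted p = 8.06e-08), with 12-fold in the marrow and 22.4-fold in the thymus. That of Rag2 was 1.56 ± 0.11, or 2.95-fold (adjusted p = 1.13e-05), with 2.59-fold in the marrow and 3.36-fold in the thymus. The thymic and marrow changes did not differ by the test for either gene (adjusted p = 0.0651 and 0.549). In HSC the levels were 5.84 and 6.11 for Rag1 and 4.71 and 4.86 for Rag2, so Rag2 already stood higher in LMPP than in HSC.

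Promoters are shown for Rag1, Rag2 and Il7r, picked from the genes that rose in both organs, and for Cd34, picked from those that fell. They are set side by side for their E boxes, the CANNTG letters that E proteins such as Tcf3 and Tcf12 recognise. Each line gives the 250 bases before the annotated start, 5′ to 3′ in the direction of the gene, with CANNTG in capitals, from RefSeq on GRCm38.p6: Rag1 at chr2:101649533-101649782 (minus strand), Rag2 at chr2:101624462-101624711 (plus), Il7r at chr15:9529877-9530126 (minus) and Cd34 at chr1:194938571-194938820 (plus).
Rag1: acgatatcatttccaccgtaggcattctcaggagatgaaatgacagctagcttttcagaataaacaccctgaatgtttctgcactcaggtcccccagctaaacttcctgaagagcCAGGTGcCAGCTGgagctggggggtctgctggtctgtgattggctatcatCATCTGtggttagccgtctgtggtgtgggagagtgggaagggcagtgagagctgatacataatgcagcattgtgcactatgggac
Rag2: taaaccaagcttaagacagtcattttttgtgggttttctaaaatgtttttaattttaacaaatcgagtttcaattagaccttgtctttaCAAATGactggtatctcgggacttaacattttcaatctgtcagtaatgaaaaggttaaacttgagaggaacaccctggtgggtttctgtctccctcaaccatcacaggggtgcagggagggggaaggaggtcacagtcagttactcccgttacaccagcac
Il7r: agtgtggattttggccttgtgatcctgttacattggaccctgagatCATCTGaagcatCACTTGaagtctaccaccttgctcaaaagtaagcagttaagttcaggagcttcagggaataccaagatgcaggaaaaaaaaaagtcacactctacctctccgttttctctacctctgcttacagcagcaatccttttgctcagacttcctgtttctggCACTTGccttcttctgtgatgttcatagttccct
Cd34: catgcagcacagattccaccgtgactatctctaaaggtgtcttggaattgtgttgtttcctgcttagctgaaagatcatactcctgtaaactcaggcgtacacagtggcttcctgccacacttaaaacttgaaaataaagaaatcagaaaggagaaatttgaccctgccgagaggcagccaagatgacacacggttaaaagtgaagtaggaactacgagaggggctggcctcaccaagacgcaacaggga
The Rag1 promoter holds 3 such letters, 2 of them 1 base apart, the Il7r promoter 3, the Rag2 promoter 1 and the Cd34 promoter 0. Cd34 does not stand for all genes that fell. In the same 250 bases Ctsg held 4 and Sema3d 3, while Cd63, Tfec, Prtn3 and Dapp1 held 0. Scanned over 300 bases (250 before and 50 after the start), 72.3% of all 32851 promoters of the table held CANNTG on either strand, since the motif reads the same on both. Promoters were found for 10 of the 15 named genes that rose in both organs and for 11 of the 15 that fell, and at least 1 CANNTG stood in 10 of the former and 6 of the latter. A gene with several starts has several promoters, 19 for the former genes against 12 for the latter, so the former had more sequence to match. The E box CAGCTG, or the E box CACCTG, which reads CAGGTG on the other strand, stood in 33.0% of all promoters, in 5 of the 10 genes and in 3 of the 11. These are letter matches in a window, with no test and no measure of binding.

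Of the 16 measured V(D)J recombination genes, Rag1 and Rag2 among them, 5 were higher in the averaged comparison and 0 lower, with a median log2 difference of 0.12 against -0.01 for all genes. Over all genes 1.79% were higher and 2.72% lower in that comparison. Xrcc6, the Ku70 subunit that holds broken DNA ends, rose in both organs, by 0.84 in the marrow and 0.53 in the thymus. Lig4, the ligase that joins the ends, was higher in DN3 alone: it measured 7.54 and 7.11 in LMPP, 7.63 and 7.59 in CLP, 7.43 and 7.53 in ETP and 9.89 and 9.93 in DN3, and the thymic change exceeded the marrow change (difference 2.14 ± 0.21, adjusted p = 0.00019). Iftap, which lies next to Rag2 in RefSeq, was higher by 2.59-fold in the average (adjusted p = 0.00431) and by 2.44-fold in the marrow, short of a call there (adjusted p = 0.108). Dntt, the terminal transferase that adds bases at the joints, was high in all 4 populations, at 12.00 and 11.98 in LMPP, 12.47 and 12.53 in CLP, 11.66 and 11.88 in ETP and 12.06 and 12.16 in DN3, and its average difference of 0.43 just missed the threshold (adjusted p = 0.0514). In this list the calls in both organs were thus the recombinase genes and Xrcc6, whose thymic call was lost without any 1 of the 2 ETP, 2 CLP or 2 DN3 arrays and whose marrow call was lost without the first LMPP or either CLP array.

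Among the other shared higher genes named here were surface receptors. Il7r, the interleukin 7 receptor chain on which both B and T progenitors depend, measured 8.33 and 8.23 in LMPP, 10.75 and 10.66 in CLP, 7.27 and 7.83 in ETP and 9.68 and 9.81 in DN3. Ly6d, a surface antigen of B-cell-biased lymphoid progenitors, measured 6.83 and 6.94 in LMPP, 10.63 and 10.68 in CLP, 7.55 and 7.93 in ETP and 10.65 and 10.60 in DN3. Ly6d stood at similar levels in CLP and DN3, while Il7r stood higher in CLP than in DN3. Both showed no overlap between the 4 restricted and the 4 multipotent arrays. Il7r was 4.97-fold higher on average (log2 2.31 ± 0.12, adjusted p = 2.51e-06) and Ly6d 10-fold higher (log2 3.33 ± 0.13, adjusted p = 2.5e-07). For Ly6d the marrow change (13.6-fold) was nominally larger than the thymic one (7.38-fold), and the difference between them was not called (adjusted p = 0.101).

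Slamf6, a homophilic receptor of the SLAM family, measured 5.86 and 5.04 in LMPP, 7.34 and 8.08 in CLP, 6.20 and 6.51 in ETP and 8.94 and 9.32 in DN3. It stood lowest in LMPP and highest in DN3 and was 5.71-fold higher in the restricted stages (adjusted p = 3.67e-05). Cd28, the costimulatory receptor of T cells, measured 6.04 and 5.66 in LMPP, 8.08 and 7.0 in CLP, 5.72 and 5.79 in ETP and 8.99 and 8.84 in DN3. Its rise in the marrow was uneven between the CLP arrays, and its marrow call (adjusted p = 0.0394) was lost when any array other than the second CLP array was left out. Ctla4, the inhibitory receptor for the same ligands and the neighbour of Cd28 in RefSeq, measured 5.29 and 4.77 in LMPP, 6.32 and 6.07 in CLP, 5.01 and 5.18 in ETP and 8.13 and 8.28 in DN3. Ctla4 rose more in the thymus (8.64-fold) than in the marrow (2.24-fold; adjusted p of the difference = 0.000963), and its marrow call was lost without the second LMPP or the first CLP array.

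**Figure D2:**
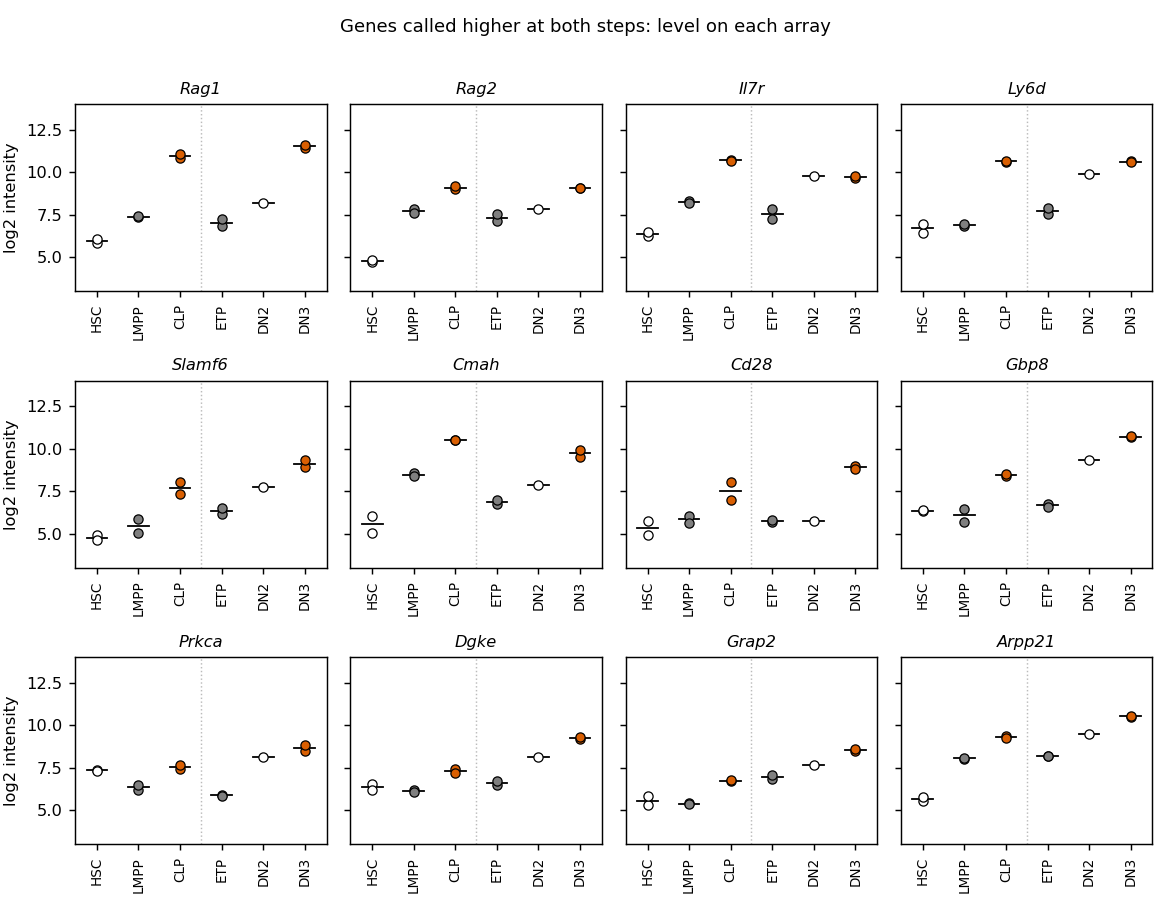
Level of 12 genes called higher at both steps on each array (y axis, log2 intensity) in HSC, LMPP, CLP, ETP, DN2 and DN3, with bars at the means. Grey points are the multipotent stages, orange points the restricted stages and open points the populations outside the comparison; Rag1 in CLP and DN3 lies between 10.85 and 11.63, above 6.85 to 7.43 in LMPP and ETP.

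Several named signalling genes also rose in both organs. Prkca, a protein kinase C isoform, measured 6.22 and 6.49 in LMPP, 7.46 and 7.69 in CLP, 5.91 and 5.86 in ETP and 8.48 and 8.83 in DN3, and rose 3.98-fold (adjusted p = 2.61e-06). Dgke, a diacylglycerol kinase, rose 3.76-fold (adjusted p = 2.9e-06), and Grap2, the adaptor that joins LAT to SLP-76 below the T cell receptor, rose 2.78-fold (adjusted p = 3.44e-05). Grap2 is one of 3 of the 27 genes whose arrays overlapped, since its ETP arrays (6.84 and 7.10) stood at or above its CLP arrays (6.73 and 6.78). Another 2 genes of this kind were picked after their values were seen: Prkcb (2.82-fold, adjusted p = 5.33e-06) and Dgka (2.15-fold, 0.000334). Their marrow calls were lost when any 1 of 6 of the 8 arrays was left out. Of the 36 measured genes of the antigen receptor signalling list, 12 were higher and 3 lower in the average (median 0.13), 5 higher and 3 lower in the marrow, and 12 higher and 6 lower in the thymus. Over all genes 1.79% were higher and 2.72% lower in the average, 0.602% and 0.542% in the marrow, and 2.68% and 3.89% in the thymus. The marrow counts fell to 2 or 3 higher and 0 or 1 lower without any 1 LMPP, CLP or DN3 array, and the 6 lower in the thymus fell to 3 without the first DN3 array. Btk, the kinase of the B cell receptor, was at 5.74 and 5.54 in DN3 and between 8.58 and 8.89 in the other 3 populations.

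The other named shared higher genes were of mixed function. Gbp8, a guanylate-binding GTPase, measured 5.73 and 6.46 in LMPP, 8.40 and 8.54 in CLP, 6.78 and 6.60 in ETP and 10.69 and 10.75 in DN3, a mean rise of 9.22-fold (adjusted p = 6.81e-07), and its neighbour and paralogue Gbp9 rose 4.33-fold (adjusted p = 3.33e-06). Probes of such paralogues may share targets, and the levels of Gbp8 and Gbp9 are uncertain to that extent. Both rose more in the thymus than in the marrow (adjusted p of the difference = 0.00685 and 0.00302). Cmah, an enzyme of sialic acid synthesis, rose 5.53-fold (adjusted p = 2.08e-05), and Mzb1, a chaperone of the endoplasmic reticulum known from immunoglobulin assembly, rose 3.38-fold (adjusted p = 1.28e-05). Arpp21, a cyclic-AMP-regulated phosphoprotein that binds RNA, measured 8.03 and 8.11 in LMPP, 9.39 and 9.24 in CLP, 8.21 and 8.21 in ETP and 10.48 and 10.58 in DN3, a rise of 3.45-fold (adjusted p = 2.05e-06). Over all 27 genes the median log2 rise was 1.21 in the marrow and 2.20 in the thymus, the thymic rise was the larger in 18, and the difference between the steps was called in 8. The arrays did not overlap in 24 of the 27. Of all 19938 genes, 745 (3.74%) had no overlap between the 4 arrays of CLP and DN3 and the 4 of LMPP and ETP, 257 (1.29%) of them higher. The 27 were chosen by calls on these same arrays, so the missing overlap is no separate support. A call in both organs was kept whichever array was left out by 14 of the 27: Arpp21, Cmah, Dgke, Gbp8, Gbp9, Grap2, Il7r, Ly6d, Mzb1, Prkca, Rag1, Rag2, Slamf6 and the deubiquitinase Stambpl1. Without either DN3 array, 16 genes were called higher in both organs.

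The 48 genes that fell in both organs included 3 of the 39 measured neutrophil and monocyte genes (Cd63, Ctsg and Prtn3). They also held 2 of the 19 measured erythroid and megakaryocyte genes (Car2 and Nfe2), where 0.241% of all genes fell in both. Car2, a carbonic anhydrase of erythroid cells among others, measured 9.12 and 9.45 in LMPP, 7.06 and 6.90 in CLP, 9.08 and 9.06 in ETP and 5.26 and 4.96 in DN3. Cd63, a tetraspanin of granule and lysosome membranes, measured 10.49 and 10.60 in LMPP, 8.96 and 7.98 in CLP, 10.51 and 10.27 in ETP and 5.47 and 5.74 in DN3. Ctsg, the neutrophil granule protease cathepsin G, measured 8.79 and 8.45 in LMPP, 6.89 and 6.38 in CLP, 9.16 and 9.56 in ETP and 5.43 and 5.74 in DN3. In all 3 genes every restricted array lay below every multipotent array, and DN3 lay below CLP. The mean differences were -3.13 ± 0.10 for Car2 (8.75-fold lower, adjusted p = 1.69e-07), -3.43 ± 0.18 for Cd63 (10.8-fold, 2.51e-06) and -2.88 ± 0.16 for Ctsg (7.36-fold, 2.9e-06). Each fell further in the thymus than in the marrow (adjusted p of the difference = 0.00107, 0.00147 and 0.00882). Prtn3, proteinase 3 of the same granules, was 2.8-fold lower (adjusted p = 1.24e-05), with 2.48-fold in the marrow and 3.17-fold in the thymus.

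The shared lower genes also included transcription factors. Nfe2, a factor of erythroid cells and megakaryocytes, measured 8.74 and 9.05 in LMPP, 7.14 and 7.48 in CLP, 8.93 and 9.13 in ETP and 6.75 and 7.30 in DN3. Its fall was alike in size in the marrow (3.01-fold) and the thymus (4.02-fold), with a difference of -0.42 ± 0.28 that was not called, and DN2 still stood at 9.36. Tfec, a relative of Mitf, was 4.53-fold lower (adjusted p = 0.000442). Its LMPP arrays stood apart at 6.73 and 7.97: without the second LMPP array the marrow difference went from -1.79 to -1.17, and the marrow call was lost without any array but the first LMPP array. The stem and progenitor cell factors Meis1 and Lmo2 were picked after their values were seen. Meis1 measured 9.12 and 9.41 in LMPP, 8.28 and 8.36 in CLP, 7.78 and 7.94 in ETP and 4.82 and 4.81 in DN3, and Lmo2 9.34 and 9.58 in LMPP, 8.33 and 8.60 in CLP, 8.43 and 8.50 in ETP and 5.87 and 5.22 in DN3. Meis1 was 3.99-fold and Lmo2 3.88-fold lower on average (adjusted p = 7.3e-06 and 1.45e-05), both more so in the thymus (adjusted p of the difference = 0.000947 and 0.00282), and both marrow calls (adjusted p = 0.0375 and 0.0435) were lost without any 1 of the LMPP, CLP or ETP arrays, that of Meis1 also without either DN3 array.

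The named shared lower genes also included receptors and ligands. Cd34, the sialomucin of stem and progenitor cells, measured 11.08 and 11.24 in LMPP, 9.65 and 10.04 in CLP, 10.92 and 11.17 in ETP and 5.39 and 5.78 in DN3. It fell 2.49-fold in the marrow and 43.8-fold in the thymus, and the changes differed (adjusted p = 6.67e-06). Its marrow call was lost without the second LMPP array. Kit, the stem cell factor receptor, measured 9.13 and 9.33 in LMPP, 8.19 and 8.10 in CLP, 9.50 and 9.23 in ETP and 7.20 and 6.84 in DN3. Kit was 3.28-fold lower on average (adjusted p = 7.53e-05), and its marrow call (adjusted p = 0.0452) was lost whichever array was left out. Angpt1, the ligand of the Tie2 receptor, fell 2.17-fold and 5.27-fold in the marrow and thymus, and both calls held without any 1 array. Adgrl4, an adhesion receptor of endothelial and progenitor cells, measured 11.30 and 11.23 in LMPP, 9.87 and 9.57 in CLP, 9.39 and 9.75 in ETP and 5.13 and 5.02 in DN3. It fell 2.92-fold in the marrow and 22.5-fold in the thymus, and CLP arrays stayed at the level of ETP arrays, so the groups overlapped. Il15, a cytokine for natural killer cells, was 5.97-fold lower (adjusted p = 3.27e-06), with a marrow call that was lost without the second LMPP array. The melanocortin receptor Mc5r was 2.88-fold lower, with almost equal changes of -1.51 and -1.55 in the marrow and thymus.

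**Figure D3:**
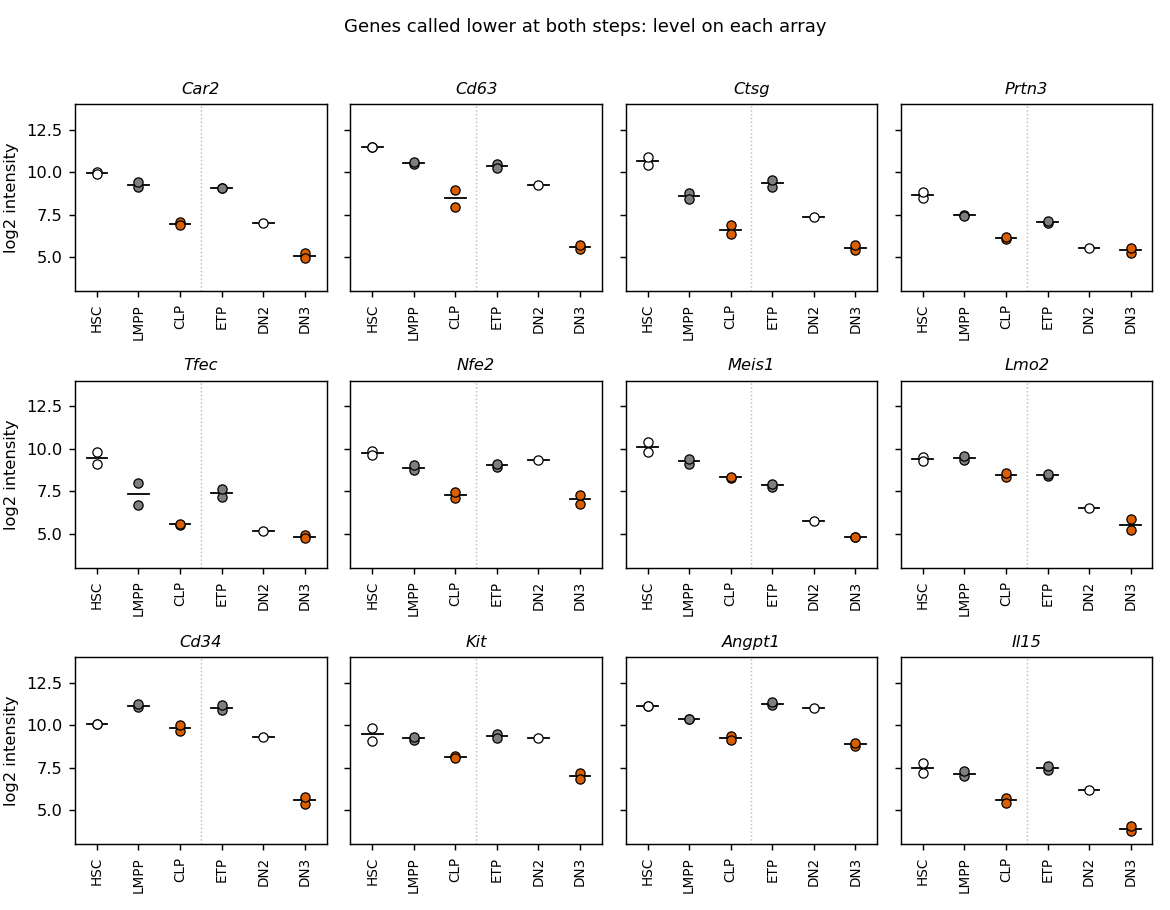
Level of 12 genes called lower at both steps on each array (y axis, log2 intensity) in HSC, LMPP, CLP, ETP, DN2 and DN3, with bars at the means and colours as in the plot of shared higher genes. Cd34 in DN3 lies at 5.39 and 5.78, while its CLP arrays lie at 9.65 and 10.04; Nfe2 falls to a similar level in CLP and DN3.

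Of the remaining named shared lower genes, the early response gene Ier3 was 3.27-fold lower, the membrane glutathione transferase Mgst1 3.18-fold, the semaphorin Sema3d 3.65-fold, the phosphoinositide-binding adaptor Dapp1 2.65-fold and Tmem273 2.62-fold (adjusted p = 2.61e-06, 0.000232, 8.86e-06, 1.67e-05 and 0.000477). The marrow calls of Mgst1 and Tmem273 were lost without any 1 of 6 arrays, that of Sema3d without the second LMPP or second CLP array. Over the 48 genes the median log2 fall was -1.11 in the marrow and -1.60 in the thymus, the thymic fall was the larger in 39, and the difference between the steps was called in 18. The arrays did not overlap in 41 of the 48, where 488 of all genes (2.45%) were lower without overlap. The 48 were chosen by calls on these same arrays, so the missing overlap is no separate support. A call in both organs was kept whichever array was left out by 15: Adgrl4, Angpt1, Car2, Cd63, Ctsg, Dapp1, Gcnt2, Gria2, Ier3, Ifitm1, Lbp, Mc5r, Nfe2, Prtn3 and Vamp5. The count of 48 became 20 without the second LMPP array, 23 without the first CLP array, 27 or 29 without a DN3 array and 30 without the first LMPP or second CLP array, and 31 with each array centred on its median.

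The gene lists placed these genes in wider groups. Over all genes the shares called lower, beside which their counts are to be read, were 2.72% in the average, 0.542% in the marrow and 3.89% in the thymus, and those called higher were 1.79%, 0.602% and 2.68%. Of 36 stem cell associated genes, 17 were lower and 1 higher in the average (median -0.39, all genes -0.01), 9 lower in the marrow and 12 lower in the thymus, with 5 lower in both. Without the second LMPP array 5 were lower in the marrow, and the 1 higher gene, Slamf1, was lost without any 1 of 6 arrays. Of 39 neutrophil and monocyte genes, 22 were lower and 1 higher (median -0.58), 4 lower and 3 higher in the marrow, and 25 lower and 0 higher in the thymus, with 3 lower in both. The 1 higher gene, Mpeg1, was joined by 1 more without the first CLP array. Mpo, the myeloperoxidase of neutrophil granules, shows the gap: it measured 10.46 and 10.64 in LMPP, 9.32 and 10.13 in CLP, 10.76 and 10.67 in ETP and 5.78 and 5.68 in DN3, a marrow difference of -0.83 that was not called (adjusted p = 0.178) and a thymic one of -4.98 (adjusted p = 3.55e-07). Of 19 erythroid and megakaryocyte genes, 4 were lower and 1 higher, the latter the transferrin receptor Tfrc. In the marrow 2 were lower and 1 higher, and in the thymus 4 were lower and 0 higher, with 2 lower in both. The 4 lower in the average fell to 2 without the second CLP or first DN3 array. Of 14 mast cell and basophil genes, 3 were lower, all of them mast cell proteases of a multigene family (Mcpt1, Mcpt2 and Mcpt8). Of 24 interferon-stimulated genes, 11 were lower and 0 higher (median -0.46), 1 lower in the marrow and 12 in the thymus. Ifitm1, an interferon-induced membrane protein, was the gene that fell in both, at 10.83 and 11.08 in LMPP, 9.81 and 9.92 in CLP, 11.44 and 11.50 in ETP and 7.44 and 7.54 in DN3.

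**Figure D4:**
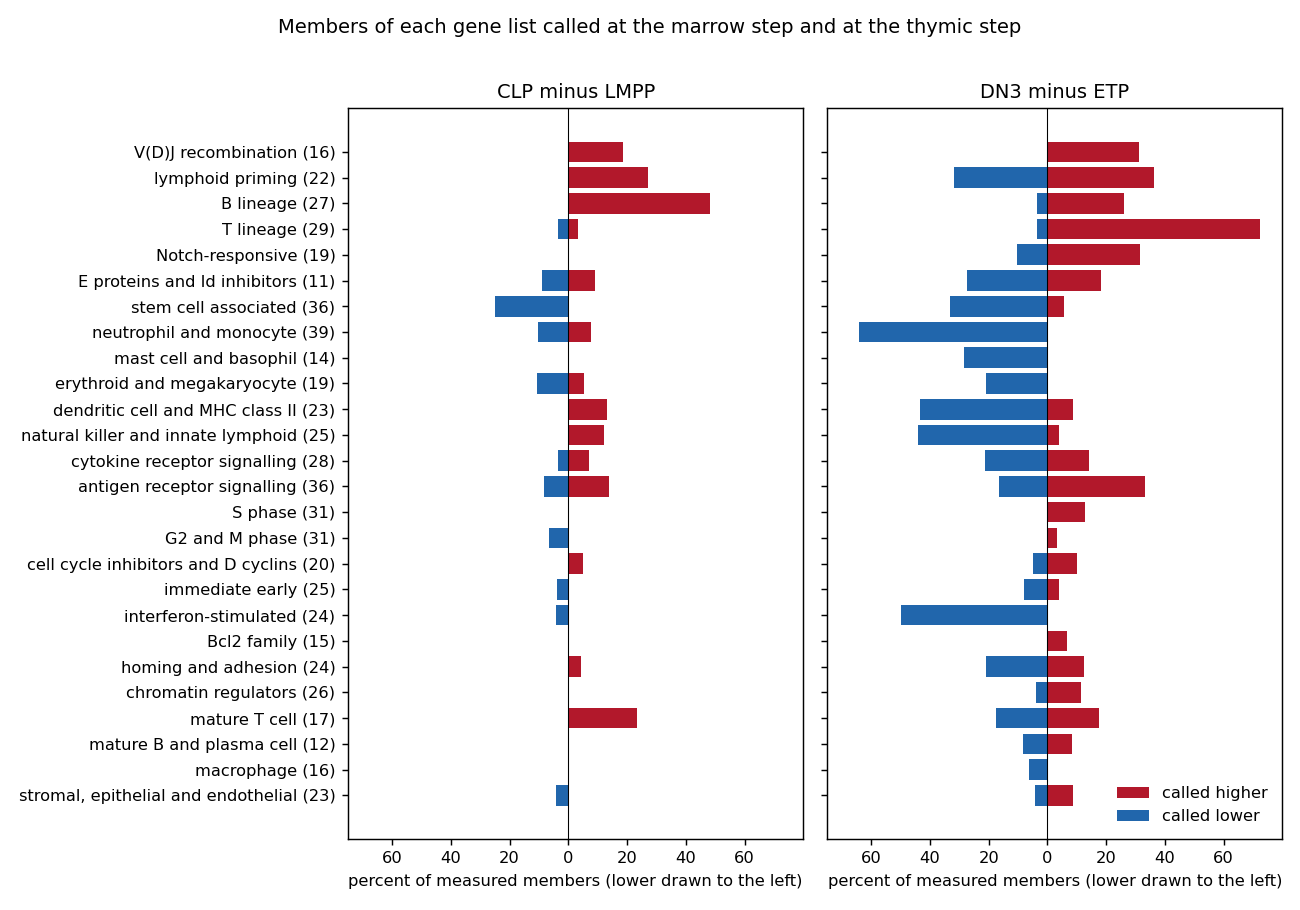
Share of the measured members of each gene list (number in brackets) called higher, to the right, and lower, to the left, at the marrow step and at the thymic step, in percent. B lineage genes rise mainly in the marrow panel (13 of 27) and T lineage genes in the thymic panel (21 of 29), while the stem cell list leans to lower in both.

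DN2 and HSC, which the comparison leaves out, give the levels of the shared genes at further stages. On the DN2 array, 15 of the 27 shared higher genes lay nearer DN3 than ETP, and the median gene had covered 54.7% of the change from ETP to DN3 (interquartile range 26.9% to 67.6%). Ly6d (9.88) and Il7r (9.77) were nearer their DN3 levels at DN2, while Rag1 (8.21), Cd28 (5.78) and Ctla4 (5.24) were nearer their ETP levels. Among the 48 shared lower genes, 21 lay nearer DN3, with a median of 47.0% of the change (20.5% to 69.1%). Adgrl4 (5.69) and Sema3d (4.43) had nearly reached their DN3 levels, and Nfe2 and Kit (9.24) were nearer ETP. DN2 is 1 array and gives no test of its own. In HSC, 19 of the 27 shared higher genes lay below LMPP, and 30 of the 48 shared lower genes lay at or above LMPP. The median log2 difference of LMPP minus HSC was 0.18 for the former and -0.45 for the latter. The matching shares over all genes were not counted, so these counts do not order the genes in development.

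Most genes of the averaged comparison were called in 1 organ alone, and a missing call does not show that they stayed level in the other. Of the 357 higher genes 294, and of the 542 lower genes 430, had the same sign in both steps. A call in the average favours equal signs, and the share over all genes was not counted. These counts are therefore no evidence of a shared change. The named genes called in 1 organ alone are those whose steps also differed by the test. In the marrow the largest such differences among higher genes were those of Ebf1 and Blnk, both of the B lineage. Ebf1 measured 5.43 and 4.74 in LMPP, 9.32 and 9.22 in CLP, 4.44 and 4.26 in ETP and 4.45 and 4.21 in DN3. Blnk, the adaptor of the B cell receptor, measured 5.29 and 5.60 in LMPP, 8.59 and 9.12 in CLP, 4.82 and 5.05 in ETP and 4.90 and 4.85 in DN3. Both were called in the marrow step alone, with rises of 18.2-fold and 10.6-fold (adjusted p = 1.67e-05 and 1.67e-05), with thymic differences of -0.02 and -0.06, yet both were called in the average (4.25-fold and 3.2-fold). Of 27 B lineage genes, 13 were higher in the marrow and 0 lower, and 7 were higher and 1 lower in the thymus. The 7 were Rag1, Il7r, Ly6d and Mzb1, shared with the marrow, Bst1 and Lef1, which also act in T cells, and Spib, a factor of B cells and plasmacytoid dendritic cells. The marrow count fell to 8 without the second LMPP array. Vpreb3, a partner of the pre-B cell receptor, rose 3.34-fold in CLP, and Pax5 and Cd79a, which act later in B cells, were not called there (adjusted p = 0.0556 and 0.607).

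The same marrow class held genes of other cells. Siglech, a receptor of plasmacytoid dendritic cells, measured 7.75 and 8.36 in CLP and 5.85 and 5.85 in LMPP, and Mpeg1, a pore-forming protein of macrophages and dendritic cells, 10.39 and 10.50 and 8.86 and 8.73. Bfsp2, a filament protein known from the eye lens, rose 4.28-fold. None of these was called in the thymus. Of 23 genes of dendritic cells and of MHC class II, 3 were higher and 0 lower in CLP, and the 3 fell to 1 without either LMPP array. In the average 7 of the 23 were lower and 1 higher, and in the thymus 10 were lower and 2 higher. The 10 became 6 without the second ETP or either DN3 array, the 2 became 1 or 0 without any 1 LMPP, ETP or DN3 array, and the 1 became 2 without the second ETP array. The mean log2 level of that list per array ran from 6.59 to 6.60 in LMPP, 6.67 to 6.82 in CLP, 6.73 to 6.82 in ETP and 5.96 to 5.98 in DN3.

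Among genes higher mostly in the thymus, those with the largest difference between the steps included the CD3 chain genes Cd3d and Cd3g. Themis and Sh2d1a were also among them, in a rank that left out antigen receptor segments. Cd3d, a chain of the CD3 complex, measured 4.82 and 4.71 in LMPP, 4.70 and 4.54 in CLP, 5.51 and 6.80 in ETP and 12.07 and 12.04 in DN3. Themis, a regulator of T cell receptor signals, measured 4.66 and 4.31 in LMPP, 4.76 and 4.49 in CLP, 4.93 and 5.28 in ETP and 10.12 and 10.08 in DN3. The ETP arrays differed between themselves for Cd3d and for Cd3g (6.68 and 8.45), the second ETP array being the higher in both. Cd3d rose 59.9-fold, Cd3g 28.6-fold, Themis 31.8-fold and Sh2d1a, the adaptor of SLAM receptors, 31.4-fold from ETP to DN3, with marrow differences between -0.14 and 0.15. The water channel Aqp11 (23.5-fold) and Khdc1a (26.7-fold) moved with them. Of 29 T lineage genes, 21 were higher in DN3 and 1 lower, against 1 higher (Cd28) and 1 lower (Prkcq) in CLP, counts that became 0 without any 1 LMPP array, the first CLP array or any 1 DN3 array.

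Losses confined by the calls to 1 organ likewise differed in kind. In the marrow they included stem cell genes that ETP no longer held at LMPP level. Myct1, a target of Myc, measured 7.12 and 7.18 in LMPP, 4.99 and 4.73 in CLP, 5.18 and 4.88 in ETP and 4.53 and 4.53 in DN3. Hlf, a factor of stem cells, measured 8.55 and 9.34 in LMPP, 6.95 and 6.95 in CLP, 6.59 and 6.49 in ETP and 6.15 and 6.11 in DN3. For both the LMPP arrays stood alone at the top, and CLP was lower by 4.88-fold and 3.98-fold (adjusted p = 4.59e-05 and 0.00231). The trafficking GTPase Rab38 (5.52-fold), the secreted protein Wfdc17 (4.54-fold), the lipoprotein receptor Vldlr (2.98-fold) and the matrix protein Postn (2.95-fold) fell in the same way. The Postn call in the average was lost without the second CLP array or any ETP or DN3 array, and its marrow call without either CLP array.

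Thymic losses included myeloid and innate genes that CLP kept. Tyrobp, the adaptor of myeloid and natural killer receptors, measured 11.34 and 11.34 in CLP, 11.67 and 11.68 in ETP and 6.56 and 7.08 in DN3, and a mean of 10.88 in LMPP. Hhex, a homeobox factor of progenitors, measured 10.02 and 10.08 in LMPP, 9.96 and 10.36 in CLP, 10.47 and 10.51 in ETP and 6.06 and 5.90 in DN3. The LMPP, CLP and ETP arrays lay together, between 10.76 and 11.68 for Tyrobp and between 9.96 and 10.51 for Hhex, and DN3 lay far below. From ETP to DN3 the falls were 28.9-fold for Tyrobp, 22.8-fold for Hhex, 26.2-fold for the nucleotide hydrolase Samhd1, 15.3-fold for the lysosomal protease Ctss, 25.3-fold for the calcium-binding protein S100a4 and 15.6-fold for Bex6. Their marrow differences ran from -0.35 to 0.61, none called. Flt3 followed them, with 11.4-fold in the thymus against a marrow difference of -0.03, and so did Cd44, at 6.71-fold against 0.00.

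Opposite changes cancel in the average, and 35 genes were called that way. The difference between the steps was called in all 35. These genes were chosen by calls of opposite sign in the same fit, so the called difference is no separate support. Klrd1, the CD94 receptor chain of natural killer cells, measured 6.24 and 5.59 in LMPP, 8.70 and 8.17 in CLP, 7.34 and 7.73 in ETP and 4.49 and 4.14 in DN3. It rose 5.74-fold in the marrow and fell 9.33-fold in the thymus, with an average of -0.35 that was not called (adjusted p = 0.447). Ly86, a partner of the RP105 receptor of B cells and myeloid cells, measured 8.11 and 7.85 in LMPP, 10.30 and 10.05 in CLP, 6.88 and 7.17 in ETP and 5.11 and 5.27 in DN3. H2-Ob, a chain of the H2-O dimer that tunes peptide loading of MHC class II, measured 9.15 and 9.11 in LMPP, 10.07 and 9.87 in CLP, 9.05 and 8.92 in ETP and 5.77 and 6.10 in DN3. All 3 were highest in CLP and lowest in DN3. Drc7, a protein of motile cilia, and Myl4, a myosin light chain, shared the pattern, with differences between the steps of -4.85 and -3.98. The marrow call of H2-Ob was lost without either LMPP or the first CLP array, and the average call of Drc7 without any array but the first LMPP array.

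The 5 genes of the reverse pattern were led by Prkcq, the protein kinase C isoform of the T cell receptor synapse, at 7.60 and 7.77 in LMPP, 6.18 and 6.72 in CLP, 7.11 and 7.54 in ETP and 8.91 and 8.92 in DN3. It fell 2.35-fold from LMPP to CLP and rose 3.02-fold from ETP to DN3, opposite to Prkca and Prkcb in the marrow and with them in the thymus. Ppic, a cyclophilin, measured 8.56 and 8.44 in LMPP, 7.40 and 7.32 in CLP, 7.11 and 7.59 in ETP and 8.73 and 8.85 in DN3. Mboat1, Cox7a1 and Wdr83os, an acyltransferase, a respiratory chain subunit and an endoplasmic reticulum protein, had differences between the steps of 1.61, 1.68 and 1.09. The marrow calls of Prkcq, Cox7a1, Mboat1 and Wdr83os each depended on at least 3 single arrays, and only Ppic of the 5 kept both calls whichever array was left out. The 35 genes became 18 or 15 without an LMPP array, 20 or 21 without a CLP array and 23 or 21 without a DN3 array. Kept in every case were 9: Cybb, Drc7, Fcer1g, Ifi209, Klrd1, Ly86, Myl4, Ppic and Slc49a4.

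**Figure D5:**
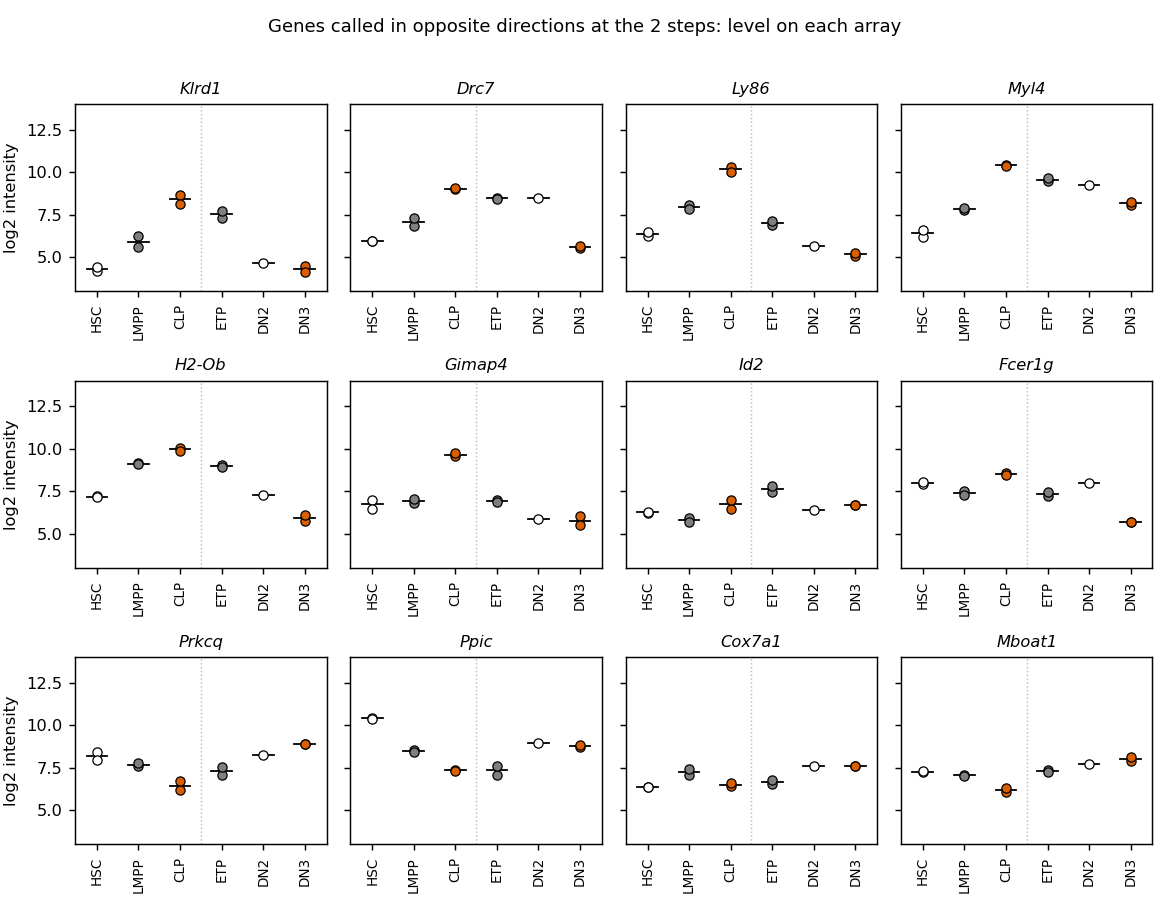
Level of 12 of the 35 genes called in opposite directions on each array (y axis, log2 intensity) in HSC, LMPP, CLP, ETP, DN2 and DN3, with bars at the means and colours as in the plot of shared higher genes. Klrd1 rises from 6.24 and 5.59 in LMPP to 8.70 and 8.17 in CLP and falls from 7.34 and 7.73 in ETP to 4.49 and 4.14 in DN3, and Prkcq runs the other way.

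Markers of other cells moved with some of these groups. Of 25 natural killer and innate lymphoid genes, 3 were higher in CLP (Klrd1, Fcer1g and Id2) and 11 were lower in DN3, and the mean log2 level of the list ran from 5.73 to 5.74 in LMPP, 5.99 to 6.15 in CLP, 6.37 to 6.56 in ETP and 5.52 to 5.62 in DN3. The natural killer receptor Ncr1, 1 of the 22 members not called in the marrow, stayed between 3.92 and 4.40 in all 4 populations. Of 17 mature T cell genes, 4 were higher in CLP (Il7r, Ctla4, Icos and Gimap4), 2 of them without the second LMPP or first CLP array. The level of that list per array ran from 6.36 to 6.50 in LMPP and from 6.87 to 7.04 in CLP. Of 16 macrophage genes 1 and of 12 mature B and plasma cell genes 1 were called in the average, the latter call lost without 7 of the 8 arrays, with Ms4a1, the mature B cell antigen CD20, between 3.77 and 4.41 in the 4 populations. Of 23 stromal, epithelial and endothelial genes 1 was higher and 2 lower, with Epcam, an epithelial antigen that thymocytes also carry, at 7.20 and 7.23 in DN3 and the keratin gene Krt5 at 5.24 and 5.23. The part of such cells in the changes of Klrd1, Icos, Siglech and Mpeg1 was not tested.

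The other lists of regulators held between 0 and 4 genes called in the same direction in both organs. Of 11 E protein and Id inhibitor genes, 2 were higher and 2 lower in the average: the E protein Tcf12 (1.86-fold) and the inhibitor Id3 (1.71-fold) rose, each in the thymus alone by the calls, while Tcf3 had an average difference of 0.01. Lmo2 of this list fell in both organs, and the inhibitor Id2 rose in the marrow and fell in the thymus. Of 19 Notch-responsive genes, 3 were higher (Hes1, Ptcra and Il2ra) and 0 lower, with 0 called in the marrow and 6 higher and 2 lower in the thymus, of which the 2 became 1 or 0 without any 1 array. The Hes1 call was lost without any array but the first LMPP array, and the 6 became 3 without the second ETP or second DN3 array. Of 22 lymphoid priming genes, 6 were higher and 6 lower in the average. In both organs 4 of the 22 were called higher, Rag1, Rag2 and Il7r among them, where 0.135% of all genes were. The 6 lower, among them Flt3 and the surface antigen Cd52, were called in the thymus and not in the marrow. They became 3 without the first CLP, either ETP or the first DN3 array. Among 28 cytokine receptor signalling genes, 5 were higher and 5 lower, Il7r being the one that rose and Kit the one that fell in both organs. Bcl2, the survival factor, rose 3.14-fold from ETP to DN3 and stood at 9.15 and 9.25 in LMPP and 9.14 and 9.43 in CLP.

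Cell cycle genes gave few calls. Of 31 S phase genes, 3 were higher in the average and 0 lower (median 0.16), among them Rrm2, a subunit of ribonucleotide reductase, by 1.51-fold (adjusted p = 0.00169), with 0 called in the marrow and 4 in the thymus, the latter 2 without an ETP array and 1 without a DN3 array. Of 31 G2 and M phase genes, 1 was lower in the average, a call lost whichever array was left out, and the list median was -0.40 in the marrow and 0.23 in the thymus. Mki67, the proliferation antigen, measured 10.51 and 10.71 in LMPP, 10.07 and 10.33 in CLP, 9.75 and 9.94 in ETP and 10.20 and 10.23 in DN3, with no call in either organ. Of the 20 cell cycle inhibitors and D cyclins 2 were higher, of the 15 Bcl2 family genes 2 were higher, of the 25 immediate early genes 1 was higher and 1 lower, of the 26 chromatin regulators 1 was higher and 1 lower, and of the 24 homing and adhesion genes 1 was higher and 5 lower. Of all genes 1.79% were higher and 2.72% lower in the average, so a count of 1 in lists of this size lies near the background. Single arrays moved these small counts. The 5 homing genes became 3 without the second LMPP, first CLP, either ETP or second DN3 array, and the 2 chromatin regulators were each lost without 7 of the 8 arrays. The 2 cell cycle genes became 1 without the second ETP or first DN3 array, the 2 Bcl2 family genes 1 without any array but the second ETP array, and the 1 lower immediate early gene 2 without the second LMPP array.

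A stricter reading of the same question compares the 4 restricted arrays with the 4 multipotent arrays as 2 groups, so that the gap between marrow and thymus counts as spread. That fit called 24 genes, 7 higher and 17 lower, of which 21 were also called in both steps. The 7 were Rag1, Rag2, Il7r, Ly6d, Mzb1, Stambpl1 and Iftap. Among the 17 were Ctsg, Nfe2, Tfec, Mgst1, Mc5r, Dapp1, the homologous pair Ctla2a and Ctla2b, and Vamp5. In the other direction, asking for a call in the average and an unadjusted p under 0.05 in each step gave 339 genes, 125 higher and 214 lower.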

How the data were processed

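Total RNA of 11 samples was hybridised to Affymetrix arrays. The deposited values are log2 intensities per probe set made by the authors with RMA, per the submitters' processing notes; no version of it is named there. Of 35556 probe sets, 21789 had 1 gene symbol, 1621 several and 12146 none; names were updated through RefSeq (21698 matched, GRCm38.p6), and for the 999 genes with several probe sets the one with the highest mean was kept, giving 19938 genes. In limma 3.58.1 (R 4.3.3), means of the 6 populations were fitted over the 11 arrays with empirical Bayes variances, and contrasts were tested two-sided with Benjamini-Hochberg adjustment over all genes; a call is an adjusted p under 0.05. The fit was tested on simulated data. The number of arrays limits the precision. Genes named are the 15 higher and 15 lower that were called in both steps, ranked by the smaller of their 2 changes. To these were added, among genes called in the average whose steps also differed, the 6 with the largest difference in each of 4 classes (higher or lower, mostly in marrow or in thymus), and the 5 with the largest difference for each opposite pattern. Predicted genes, antigen receptor segments, histones and olfactory and vomeronasal genes were left out of these ranks. Up to 4 called members of each of 26 gene lists and regulators of lymphoid restriction were also named. Any other gene was picked after its values were seen. The members and lists were chosen with earlier results of these data known.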

Additional observations from a re-analysis of the deposited data

Results flagged for a closer look

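The marrow and the thymic change were set against each other in the same limma fit, and 746 genes differed (Benjamini-Hochberg adjusted p under 0.05), against 450 when the second DN3 array was left out. Values below are log2 differences, the thymic change minus the marrow change, so a positive value means a larger rise or smaller fall in the thymus.

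Among the named genes that rose in both organs the difference was 1.95 for Ctla4, 1.66 for Gbp8, 1.62 for Gbp9, 1.54 for Prkca, 1.47 for Dgke and 1.07 for Arpp21, each rising further in the thymus. Among those that fell in both it was -4.14 for Cd34, -2.95 for Adgrl4, -2.71 for Cd63, -2.01 for Il15, -1.79 for Ctsg, -1.66 for Car2 and -1.22 for Sema3d, each falling further in the thymus. The call for Sema3d was lost when any 1 of 6 arrays was left out.

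Genes called higher in the marrow step and not in the thymic step differed by -4.20 (Ebf1), -3.47 (Blnk), -2.14 (Siglech), -2.07 (Bfsp2), -1.92 (Mpeg1) and -1.72 (Vpreb3). Those called higher in the thymic step and not in the marrow step differed by 6.05 (Cd3d), 5.27 (Aqp11), 4.94 (Sh2d1a), 4.85 (Themis), 4.84 (Cd3g) and 4.83 (Khdc1a). Those called lower in the marrow step and not in the thymic step differed by 2.89 (Rab38), 1.82 (Wfdc17), 1.79 (Myct1), 1.66 (Vldlr), 1.59 (Hlf) and 1.46 (Postn), and the calls for Hlf and Postn were lost when any 1 of 7 arrays (Hlf) or 6 arrays (Postn) was left out. Those called lower in the thymic step and not in the marrow step differed by -5.31 (Tyrobp), -4.62 (Hhex), -4.55 (Bex6), -4.54 (Ctss), -4.44 (S100a4) and -4.37 (Samhd1).

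Opposite changes gave -5.74 for Klrd1, -4.85 for Drc7, -4.03 for Ly86, -3.98 for Myl4 and -3.89 for H2-Ob, which rose in the marrow and fell in the thymus. The reverse pattern gave 2.83 for Prkcq, 2.57 for Ppic, 1.68 for Cox7a1, 1.61 for Mboat1 and 1.09 for Wdr83os.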

How the results depend on the processing

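At an adjusted p under 0.01, 529 genes were called in the average, 104 in the marrow step, 781 in the thymic step and 412 in the difference between them; 36 were shared, 16 higher and 20 lower, and 17 were opposite. Asking for at least a 2-fold change as well gave 218, 136 and 594 calls in the average, marrow and thymus, 42 shared genes (16 higher, 26 lower) and 17 opposite. Array weights raised the thymic calls to 2030, arrays centred on their medians lowered the shared lower genes to 31, the 2-group fit gave 24 genes and the looser rule 339 shared genes. Leaving out 1 array at a time gave 597 to 747 genes in the average, 98 to 193 in the marrow, 695 to 1322 in the thymus, 450 to 666 in the difference, 39 to 59 shared, 16 to 21 shared higher, 20 to 39 shared lower and 15 to 32 opposite. No paired design was given, and the main fit did not pair the arrays. Deviations of arrays with the same replicate number correlated at 0.07 to 0.28 over the 6 pairs among LMPP, CLP, ETP and DN3, 4 of them above 0.1. With HSC they correlated at -0.26 to -0.09. HSC lies outside the comparison, so its sign does not decide whether the 8 arrays are paired, which cannot be told. A replicate block gave 854, 216, 1285 and 729 calls, 70 shared and 40 opposite, but it took HSC to share the numbering. Another quantile normalization, 2 filters on dim probe sets, averaging probe sets, trended robust variances and the 8 arrays alone kept every count within 1.5 times. Of 2394 values of 127 named genes under the alternatives, 127 lost and 13 gained a call. Each value is the average difference, or the difference between the steps for genes named for opposite changes. Calls in the single steps were not among these values and were less stable. Whichever array was left out, all 75 shared genes kept their call in the average. Both step calls were kept by 14 of the 27 shared higher and 15 of the 48 shared lower genes. A change of direction was counted only where the main or the alternative fit called the gene, and 0 were found. Uncalled genes near zero could change sign without being counted, and the stricter thresholds reuse the main estimates. With 2 arrays a population, 5 residual degrees of freedom and low-level signals near background, small changes could be missed.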

Other observations

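Genes called in both organs were in places neighbours in the RefSeq gene order. Of the 110 such genes 108 had a position, and 10 pairs lay with at most 2 measured protein-coding genes between them, 7 of these pairs with the same pattern in both genes. The number of such pairs among other genes was not counted, so the 10 cannot be read as clustering. The neighbours Cd28, Ctla4 and Icos enter these pairs more than once. Rag1 and Rag2, Cd28 and Ctla4, and Gbp8 and Gbp9 were adjacent pairs that rose in both organs. Icos, next to Ctla4, went the other way in the thymus: it measured 7.05 and 7.02 in LMPP, 7.96 and 7.79 in CLP, 7.30 and 7.33 in ETP and 6.17 and 6.60 in DN3, a rise of 1.79-fold in the marrow and a fall of 1.91-fold in the thymus. P2ry14, which fell in both organs, lay beside P2ry13, which rose in the marrow and fell in the thymus. Cross-hybridisation between the paralogues Gbp8 and Gbp9, or Ctla2a and Ctla2b, was not tested.

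Gzma, granzyme A of cytotoxic cells, was the 1 gene of the natural killer list that was higher in the average. It measured 4.90 and 4.96 in LMPP, 5.23 and 4.82 in CLP, 6.52 and 7.66 in ETP and 11.16 and 11.21 in DN3 and 9.53 in DN2, a rise of 17.1-fold from ETP to DN3 (limma adjusted p = 1.23e-05). Fasl, the death ligand of the same cells, went the other way, with 4.26 and 4.31 in LMPP, 4.14 and 4.16 in CLP, 7.94 and 8.03 in ETP and 4.30 and 4.17 in DN3, a fall of 13.4-fold.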
